A study of Mus musculus with 9 samples.

Results

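The bone morphogenetic protein (BMP) genes examined here were the ligands Bmp2, Bmp4 and Bmp7, the type I receptors Bmpr1a and Bmpr1b, the secreted antagonist Nog, and the target genes Msx1, Msx2, Id1 and Id3. They are 10 of 21951 protein-coding genes of the GENCODE M21 annotation, and they were chosen by name for their place in the pathway, not by a measured value. Earlier results of these data were known when they were chosen. Each gene was given a window of its whole span and 50 kb on each side, and every peak of histone H3 lysine 27 acetylation (H3K27ac, which marks active enhancers and promoters) in that window was counted. The windows held 68 of 25096 peaks of wild-type (WT) forelimb buds, 100 of 32085 peaks of Shh-/- buds and 80 of 34641 peaks of Shh-/-;Gli3-/- buds.

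The series comprises 9 libraries from mouse forelimb buds at E10.5 (the age in embryonic days, in embryos of 33 to 34 somites), with 2 H3K27ac replicates and 1 input for each of the 3 genotypes. The labels give a mixed strain background, whereas the study's methods name Swiss Webster as the background of both null alleles, and each immunoprecipitation used the limb pair of 1 embryo. Shh-/- embryos carry a null allele (tm1amc) of Sonic hedgehog, and Shh-/-;Gli3-/- embryos carry it together with the Xt-J null allele of Gli3, so both mutants lack the Hedgehog ligand and the double mutant also lacks GLI3, which acts chiefly as a repressor where the ligand is absent. Both are germline null alleles, so the loss is not limited to a cell type, and the study describes the WT embryos as littermates of the double mutants. The lists do not check the genotype labels at the targeted genes: Shh (10.4 kb) had no peak over its span in any list, and the Gli3 promoter was covered over 2881 bp in WT and 2831 bp in each mutant. The buds were whole, so a smaller number of cells with a mark and a weaker mark per cell cannot be told apart. One peak list was analysed per genotype. Since replicate values are not part of the lists, the variation among embryos is unknown, no p-value is given, and each difference below is a difference between 2 lists.

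BMP ligands bind pairs of type I and type II serine/threonine kinase receptors on the cell surface, and the activated receptors phosphorylate SMAD1, SMAD5 and SMAD9, which enter the nucleus with SMAD4. Msx1, Msx2, Id1 and Id3 are classical transcriptional targets of this signal, and Noggin and Gremlin bind the ligands outside the cell. In limb bud mesenchyme Bmp2 is expressed posteriorly, near the source of SHH, whereas Bmp4 and Bmp7 are expressed more widely.

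The windows of the strongest distal Shh-/- peak, by the authors' fold over input, at Bmp2, Bmp7, Bmpr1b, Msx2 and Id3 are shown first, because most of the differences between lists described below lie in such peaks. An Id1 window follows, taken from the strongest distal Shh-/-;Gli3-/- peak that overlapped a WT peak and no Shh-/- peak. They were chosen after their values were seen. Each is 300 bases of GRCm38 (the assembly of mm10), plus strand, around the position of the largest peak statistic, and none overlaps an annotated exon. Capitals mark CCACCCA (the core of the GLI motif), CAGAC (the SMAD box) and GGCGCC (a GC-rich element that binds SMAD1 and SMAD5), each searched on both strands, so that the reverse complements TGGGTGG and GTCTG are also in capitals. The motifs can share at most 2 letters with one another.
Bmp2, Shh-/- peak, chr2:133566776-133567075: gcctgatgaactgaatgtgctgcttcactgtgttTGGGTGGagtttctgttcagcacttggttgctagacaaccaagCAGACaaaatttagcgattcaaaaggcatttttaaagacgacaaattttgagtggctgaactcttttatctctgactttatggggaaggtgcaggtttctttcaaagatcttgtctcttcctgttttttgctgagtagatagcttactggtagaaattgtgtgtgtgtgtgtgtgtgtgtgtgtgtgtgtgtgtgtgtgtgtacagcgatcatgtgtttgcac
Bmp7, Shh-/- peak, chr2:172935376-172935675: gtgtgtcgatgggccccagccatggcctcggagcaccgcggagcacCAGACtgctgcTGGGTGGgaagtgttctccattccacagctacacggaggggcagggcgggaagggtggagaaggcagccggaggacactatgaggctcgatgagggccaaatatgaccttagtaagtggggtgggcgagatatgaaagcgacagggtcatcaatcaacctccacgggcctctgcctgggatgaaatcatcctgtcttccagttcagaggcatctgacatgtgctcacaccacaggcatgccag
Bmpr1b, Shh-/- peak, chr3:142098126-142098425: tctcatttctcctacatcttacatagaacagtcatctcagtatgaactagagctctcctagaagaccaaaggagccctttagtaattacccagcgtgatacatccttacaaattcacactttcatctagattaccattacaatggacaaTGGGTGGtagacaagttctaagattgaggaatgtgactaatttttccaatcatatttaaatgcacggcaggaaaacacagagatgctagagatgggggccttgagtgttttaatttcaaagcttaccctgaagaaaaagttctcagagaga
Msx2, Shh-/- peak, chr13:53465276-53465575: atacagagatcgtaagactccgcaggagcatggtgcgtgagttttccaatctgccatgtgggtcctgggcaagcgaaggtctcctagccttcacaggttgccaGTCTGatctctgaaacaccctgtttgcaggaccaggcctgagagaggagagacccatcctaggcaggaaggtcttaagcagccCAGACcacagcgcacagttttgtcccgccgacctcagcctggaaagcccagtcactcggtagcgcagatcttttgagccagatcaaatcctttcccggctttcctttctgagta
Id3, Shh-/- peak, chr4:136134676-136134975: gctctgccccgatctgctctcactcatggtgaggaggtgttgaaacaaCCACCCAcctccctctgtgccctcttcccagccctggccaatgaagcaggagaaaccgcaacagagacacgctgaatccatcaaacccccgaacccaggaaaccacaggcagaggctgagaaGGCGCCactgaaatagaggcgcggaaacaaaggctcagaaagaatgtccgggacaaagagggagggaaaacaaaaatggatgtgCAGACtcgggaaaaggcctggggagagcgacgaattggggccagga
Id1, Shh-/-;Gli3-/- peak, chr2:152739376-152739675: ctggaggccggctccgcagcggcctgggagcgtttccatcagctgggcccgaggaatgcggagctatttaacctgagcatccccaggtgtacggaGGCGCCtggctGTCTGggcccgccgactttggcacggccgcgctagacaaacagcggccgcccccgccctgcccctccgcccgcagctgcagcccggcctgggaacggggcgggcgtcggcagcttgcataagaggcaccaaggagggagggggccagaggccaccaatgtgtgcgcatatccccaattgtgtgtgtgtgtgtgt
The GLI core was present in the Bmp2, Bmp7, Bmpr1b and Id3 windows and not in the Msx2 or Id1 window. It was also absent from the windows, not printed, of the strongest distal Shh-/- peaks at Bmp4, Bmpr1a, Msx1 and Id1. Among all 16481 distal Shh-/- peaks on assembled chromosomes, 8.03% of such windows held it, and at the BMP genes 10 of 69 did (14.5%). The SMAD box was in 56.3% of all distal Shh-/- windows and in 34 of the 69 at the BMP genes (49.3%), and the GGCGCC element was in 3.93% of all and 5 of the 69. In the WT list the GLI core was in 4 of 49 distal windows at the BMP genes, against 8.73% of all, and in the Shh-/-;Gli3-/- list in 5 of 62, against 6.75% of all. The GGCGCC element was in 7 of the 49 WT windows (14.3%), against 4.35% of all, and in 4 of the 62, against 2.91%. The SMAD box was in 27 of the 49, against 55.9% of all, and in 30 of the 62, against 52.2%. RefSeq promoter sequences (GRCm38.p6, 250 bases before to 50 after the start) were matched for 6 of the 10 genes, Bmp4, Bmpr1a, Bmpr1b, Msx1, Msx2 and Id3. None of the 6 held the GLI core, which was in 9.32% of 27025 promoters, 2 held the SMAD box (49.7% of all) and 1 the GGCGCC element (12.0% of all). The Bmpr1b sequence (chr3:141982215-141982514), among the 2 with a SMAD box, lies inside the gene. It is not the start at which the Bmpr1b promoter peaks described below were found. A match of letters is a description of the sequence and shows no binding.

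The length of each window under peaks, called covered length, differed between lists at most of the 10 genes. The ratio of covered lengths is given as a log2 ratio after 500 bp were added to each length, and a gene was called higher or lower when it differed by 2-fold or more on that scale. Over all 10 genes the covered length was 27.65 kb in the WT, 47.35 kb in the Shh-/- and 46.25 kb in the Shh-/-;Gli3-/- list. In Shh-/- against WT all 10 ratios were above 0, with a median of 0.82, and 4 genes were called higher (Bmp2, Bmp7, Bmpr1b and Msx2) and 0 lower. Among 17105 protein-coding genes with a peak in either list, 4.34% were called higher and 0.304% lower, and the median ratio was 0.21. For Shh-/-;Gli3-/- against WT the median was 0.60, with 2 genes called higher (Bmp7 and Bmpr1b) and 0 lower, where 7.65% of 17083 genes were called higher, 0.123% lower, and the median of all genes was 0.30. Between the mutants (Shh-/-;Gli3-/- against Shh-/-) the median was 0.04, and 2 genes were called lower (Msx2 and Nog) and 0 higher, against 0.898% lower and 4.10% higher of 17270 genes and a median of 0.11. The comparisons share lists, so their counts are not independent of one another.

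**Figure D1:**
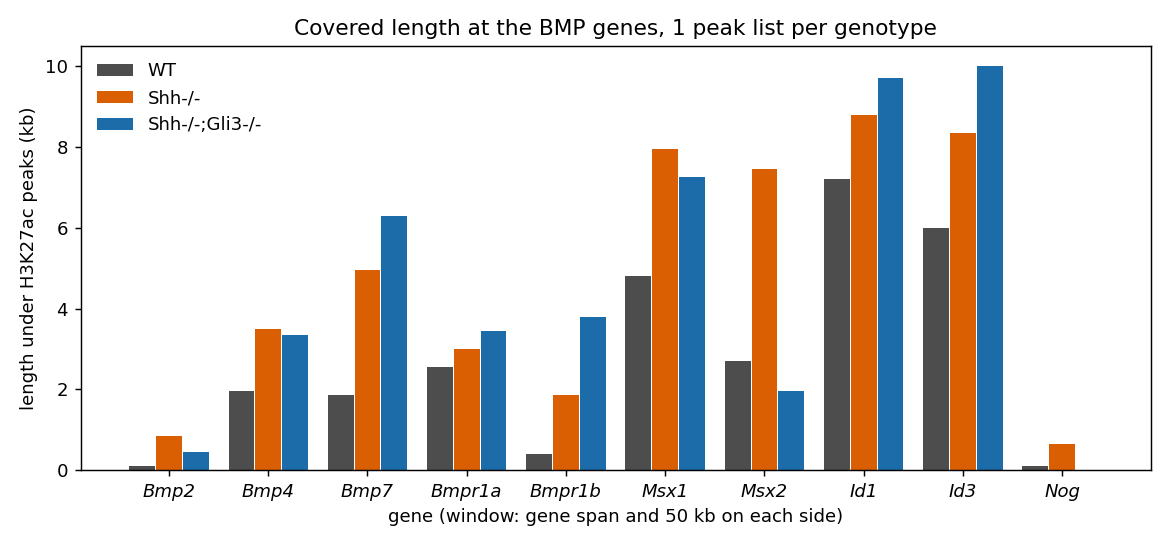
Length under H3K27ac peaks (kb, vertical axis) in the window of each BMP gene (horizontal axis), with 1 bar for each genotype's peak list and no error bar because the lists hold no replicates. Id1 and Id3 carried the longest coverage, up to 10 kb at Id3 in the Shh-/-;Gli3-/- list, and Msx2 was at 7.45 kb in the Shh-/- list and 1.95 kb in the Shh-/-;Gli3-/- list.

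**Figure D2:**
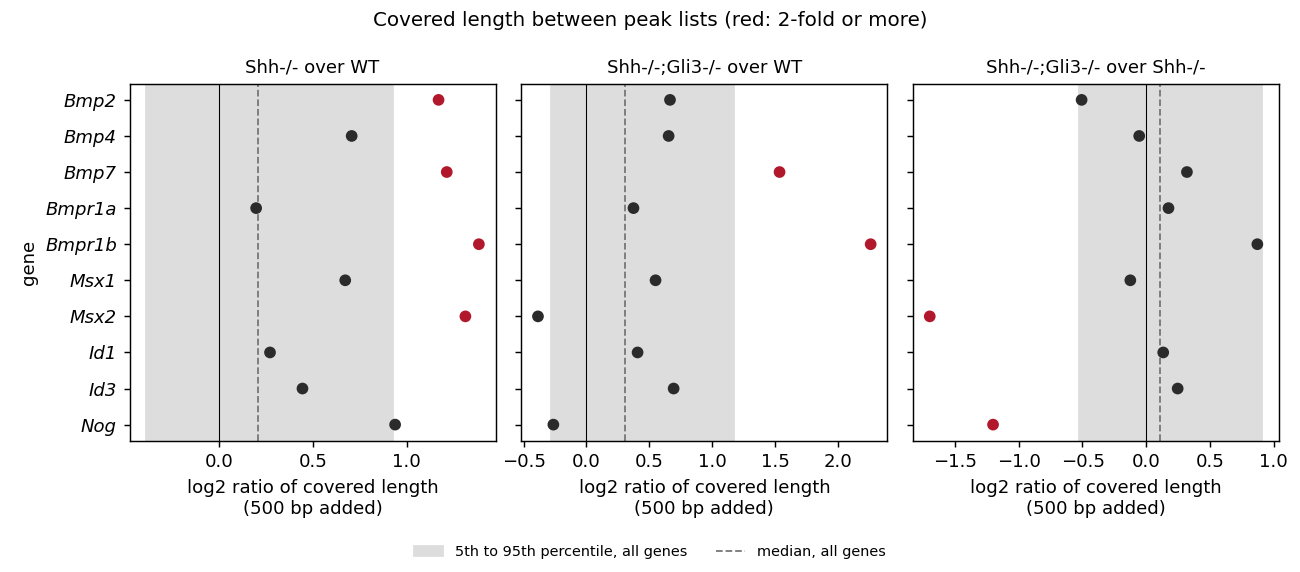
Log2 ratio of covered length (horizontal axis, 500 bp added) for each BMP gene (vertical axis) in the 3 comparisons of lists. Grey bands span the 5th to the 95th percentile of all protein-coding genes with a peak, dashed lines mark their median, and red points differ by 2-fold or more, with the lowest at -1.70 (Msx2) and the highest at 2.26 (Bmpr1b).

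The lists differ in size, with 10.4 Mb under WT, 12.9 Mb under Shh-/- and 17.1 Mb under Shh-/-;Gli3-/- peaks, and this moved with the results. Each list was also cut, from its highest statistic down, to the covered length of the shortest list. Then 2 genes were called higher in Shh-/- than in WT, Msx2 and Bmpr1b, the latter exactly at the limit (log2 ratio 1). In Shh-/-;Gli3-/- against WT 0 were called higher and 1 lower (Msx2, log2 ratio -1.42). The share of all genes called under this setting was not computed. How much of each difference follows from list size or depth was not tested.

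The 3 ligands differed in how much of their windows was marked and where. Bmp2 (chr2:133552159-133562885, plus strand) was among the least covered genes, with 0.10 kb (WT), 0.85 kb (Shh-/-) and 0.45 kb (Shh-/-;Gli3-/-). Its promoter, defined as 2 kb before to 1 kb after a transcript start, held no peak in any of the 3 lists. The only WT peak was 100 bp wide with a false discovery rate (FDR) of 0.168, so the WT value rests on a peak that an FDR limit of 0.05 removes. The log2 ratio was 1.17 in Shh-/- over WT, higher than in 97.7% of genes, and 0.66 in Shh-/-;Gli3-/- over WT, higher than in 81.5% of genes. At such lengths 1 narrow peak moves the ratio, and the call in Shh-/- was lost under 5 of 11 alternative settings.

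Of the 6 peaks at Bmp2, 5 lay 3 prime of the gene within 2.05 kb of one another (chr2:133565950-133567999), at 13.8 to 15.8 kb from its start, in sequence that the annotation leaves intergenic. The WT peak was at 15.8 kb, the Shh-/-;Gli3-/- peak (450 bp, log2 fold 2.89 over its input) at 15.3 kb, and 3 Shh-/- peaks at 13.8, 14.4 and 14.7 kb. No peak of one list overlapped a peak of another, so the 3 lists marked adjacent stretches of the same intergenic block. Folds are relative to each genotype's own input and were not compared between lists. The remaining Shh-/- peak was 25.1 kb upstream of the gene (250 bp, FDR 0.0443). The Bmp2 sequence printed above is the Shh-/- peak at 14.7 kb, whose log2 fold of 3.03 was the highest among the Shh-/- peaks at this gene.

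**Figure D3:**
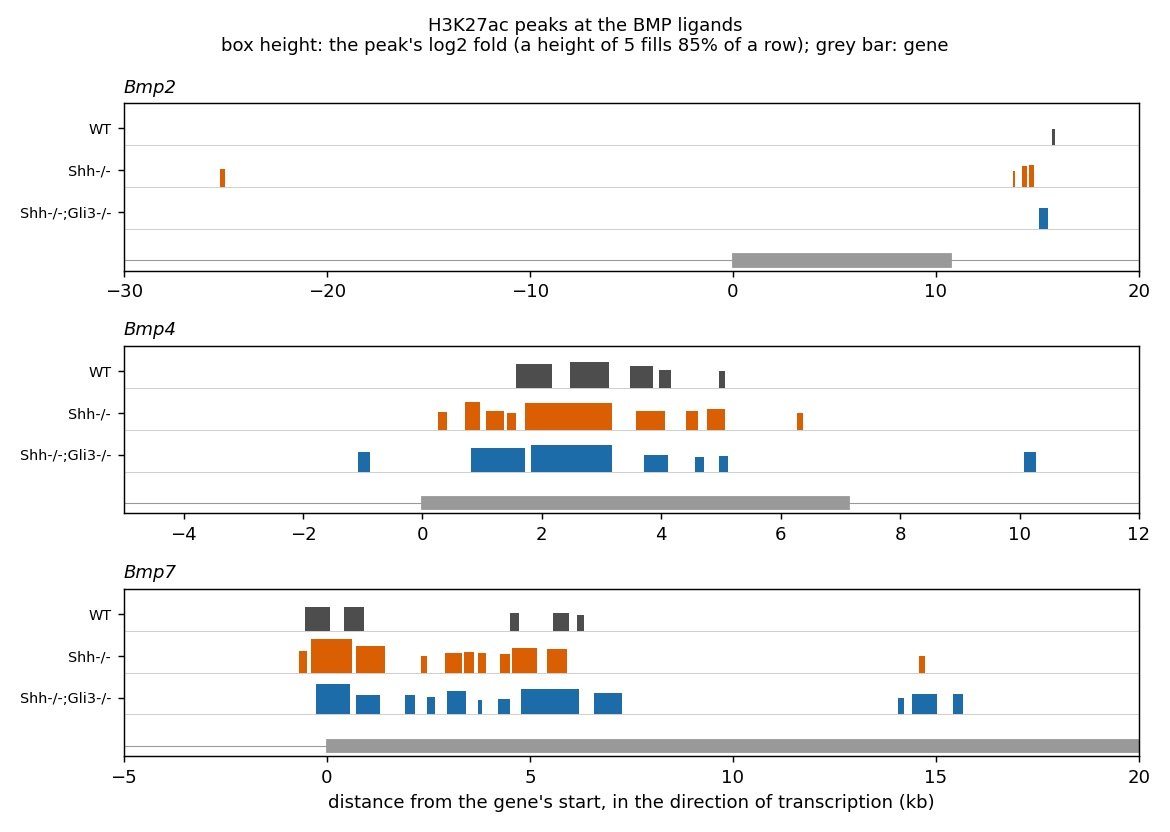
Peaks of each list (boxes, 1 row per genotype, height by the peak's log2 fold over its own input) by distance from the start of Bmp2, Bmp4 and Bmp7 in the direction of transcription (horizontal axis, kb). The Bmp2 promoter is empty in the 3 rows, the WT peaks of Bmp4 lie inside the gene away from its start while both mutant rows have peaks nearer to it, and Bmp7 shows peaks from its start into the first part of the gene; 1 Bmp4 and 3 Bmp7 peaks farther away are outside the axes.

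Bmp4 (chr14:46383520-46390669, minus strand) had 1.95 kb under WT peaks, 3.50 kb under Shh-/- peaks and 3.35 kb under Shh-/-;Gli3-/- peaks. Both mutants were thus above WT, by log2 ratios of 0.71 and 0.65 that are under the 2-fold limit, and the mutants differed from each other by -0.06. No WT peak overlapped the Bmp4 promoter, whereas 3 Shh-/- peaks and 2 Shh-/-;Gli3-/- peaks did, covering 450 and 500 bp of the 3120 bp that its promoter windows span. The widest of these was 900 bp in Shh-/-;Gli3-/-, and it overlapped a WT peak of 600 bp that ended short of the promoter window. All 5 distal WT peaks of Bmp4, in introns and exons of Bmp4 and in exons of the overlapping gene Gm15222, were overlapped in both mutant lists. The broadest stretch lay 2.4 kb into the gene, with a Shh-/- peak of 1450 bp and a Shh-/-;Gli3-/- peak of 1350 bp, each of which overlapped 2 WT peaks, of 650 and 600 bp.

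Bmp7 (chr2:172868012-172940321, minus strand) was covered more in both mutant lists, over 1.85 kb (WT), 4.95 kb (Shh-/-) and 6.30 kb (Shh-/-;Gli3-/-). The log2 ratios were 1.21 and 1.53, above 98.1% and 97.9% of genes. Its promoter was marked in each list, over 1100, 1479 and 1129 bp of the 3001 bp window, so most of the added length was distal, at 0.75, 3.05 and 4.85 kb. Distal peaks numbered 3 in WT, 10 in Shh-/- and 11 in Shh-/-;Gli3-/-, in introns of Bmp7 except for 3 intergenic peaks of the mutant lists. Peaks 14.1 to 15.5 kb into the gene were present in Shh-/- (1 of 150 bp) and Shh-/-;Gli3-/- (250, 600 and 150 bp) and not in WT. The call in Shh-/-;Gli3-/- held under 10 of 11 alternatives and was lost, at 0.25, with lists of equal covered length, and that in Shh-/- held under 8 of 11, with a lowest value of 0.67.

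Compared per length of window, Bmp2 was covered over 0.0903% in WT, 0.768% in Shh-/- and 0.406% in Shh-/-;Gli3-/-. Bmp4 was covered over 1.82%, 3.27% and 3.13%, and Bmp7 over 1.07%, 2.87% and 3.66%. Bmp2 was therefore the least covered ligand in each list. The log2 ratio of Bmp2 minus the mean of those of Bmp4 and Bmp7 was 0.21 in Shh-/- over WT and -0.43 in Shh-/-;Gli3-/- over WT. Over the alternatives the first ran from 0.01 to 1.22 and the second from -0.52 to 0.29, so the second has no stable sign. In neither full mutant list was Bmp2 covered less than in WT, whereas with lists of equal covered length it had 0.10 kb (WT), 0.50 kb (Shh-/-) and 0 kb (Shh-/-;Gli3-/-).

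With all 3 lengths considered together, the 5 genes outside the Bmp2 window most like it, by Euclidean distance of the 3 log2 lengths over 17639 genes with a peak, were Spp2, Zfp874a, Cript, Hspb8 and Srrm4. Their distances were 0.09 to 0.19, and 15 of the 17639 genes lay within 0.25.

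The type I receptors differed from each other. Bmpr1a (chr14:34410734-34503341, minus strand) had one of the strongest promoter peaks of each list, ranked 81 in WT, 49 in Shh-/- and 24 in Shh-/-;Gli3-/- by the peak statistic, and its promoter was covered over 1763 bp in all lists. Its covered length of 2.55, 3.0 and 3.45 kb gave log2 ratios of 0.20 and 0.37 over WT, near the medians of all genes. A distal peak in an intron of the neighbouring gene Ldb3, 46.6 kb upstream of Bmpr1a, was present in each list (500, 650 and 350 bp).

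Bmpr1b (chr3:141837136-142169425, minus strand), the receptor linked to cartilage condensation in digits, had 0.40 kb under WT peaks, 1.85 kb under Shh-/- peaks and 3.80 kb under Shh-/-;Gli3-/- peaks. The log2 ratios over WT were 1.38 and 2.26, higher than in 99.1% and 99.6% of genes. In WT the 1 peak was a promoter peak of 400 bp, and 0 distal peaks were found, against 4 in Shh-/- and 12 in Shh-/-;Gli3-/-. Of these, 10 of the 12 lay in introns of Bmpr1b, 7 of them in groups 44.3 to 45.3 kb and 74.5 to 76.8 kb into the gene, and 2 lay 42.5 and 43.3 kb upstream. The strongest was 650 bp wide at 44.3 kb, with a log2 fold of 4.30 over its input and an FDR of 0.000233, and it overlapped a Shh-/- peak of 150 bp. Promoter peaks covered 400, 950 and 850 bp, where the Shh-/- value joins peaks of 750 and 200 bp. At an FDR below 0.05 the lengths were 0.40, 1.5 and 3.50 kb, and with lists of equal covered length they were 0.40, 1.30 and 0.65 kb. Equal covered length ended the call in Shh-/-;Gli3-/- and kept that in Shh-/- exactly at the limit, at a log2 ratio of 1. With peaks of a log2 fold of at least 3, both calls were lost, at log2 ratios of 0.83 and 0.64.

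Nog (chr11:89300638-89302332, minus strand), which encodes Noggin, was nearly unmarked. It had 0.10 kb under 1 WT peak (FDR 0.168), 0.65 kb under 2 Shh-/- peaks and 0 kb in Shh-/-;Gli3-/-, all of it in its own promoter. The Shh-/- peaks were 200 bp at 0.1 kb after the start and 450 bp at 0.5 kb before it, with FDRs of 0.00645 and 0.0247. The log2 ratio of 0.94 in Shh-/- over WT was below the 2-fold limit, and that of -1.20 in Shh-/-;Gli3-/- over Shh-/- passed it. The latter was lost, at -0.49, both at an FDR below 0.01 and with lists of equal covered length. A peak list gives no count of reads, so an empty promoter says only that no peak was called there.

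Among the target genes Msx2, a homeobox gene of limb and skull mesenchyme, differed most between lists. Msx2 (chr13:53466884-53473074, minus strand) had 2.70 kb under WT peaks, 7.45 kb under Shh-/- peaks and 1.95 kb under Shh-/-;Gli3-/- peaks. It was the only target gene of the 4 that passed the 2-fold limit against WT, with a log2 ratio of 1.31 in Shh-/-, above 98.7% of genes. That call was lost with peaks merged within 1 kb (0.69) and in windows of 250 kb (0.84), and held under the other 9 alternatives. The ratio of Shh-/-;Gli3-/- over WT was -0.39, at percentile 2.93 of 17083 genes, and in Shh-/-;Gli3-/- over Shh-/- it was -1.70, at percentile 0.122 of 17270 genes. The last value ran from -2.59 to -0.49 over 11 alternatives and stayed past 2-fold in 10 of them, the exception being windows of 250 kb.

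The difference at Msx2 was distal. The promoter peak was 850 bp wide in WT, 1250 bp in Shh-/- and 700 bp in Shh-/-;Gli3-/-, and it covered 776, 901 and 700 bp of the promoter window (the Shh-/- value includes part of a second peak). Distal peaks covered 1.85, 5.85 and 1.25 kb and numbered 8, 10 and 6. All 8 distal WT peaks were overlapped by a Shh-/- peak, and 3 were overlapped by a Shh-/-;Gli3-/- peak, so 5 of 8 were held by WT and Shh-/- and not by the double mutant. At the other 9 genes 3 of 41 distal WT peaks were of that kind, and among all 11669 distal WT peaks 5.22%. The 5 peaks lay at 8.9 and 7.7 kb (3 prime of the gene), at 1.8 kb (in an intron), and at 2.5 and 3.4 kb upstream. Once overlapping peaks of the lists were joined, only 3 distal regions of Msx2 were held by WT and Shh-/- alone. The WT peaks at 1.8 kb and at 3.4 kb upstream lay in joined regions that the Shh-/-;Gli3-/- list also marked, at other positions. The strongest distal Shh-/- peak of Msx2, at 7.7 kb and printed above, was 600 bp wide with a log2 fold of 4.69 and an FDR listed as 0, and it overlapped a WT peak of 250 bp. A stretch 9.7 to 10.4 kb from the start was marked in each list, over 600 bp in WT, 850 bp in Shh-/- and 750 bp in Shh-/-;Gli3-/-.

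**Figure D4:**
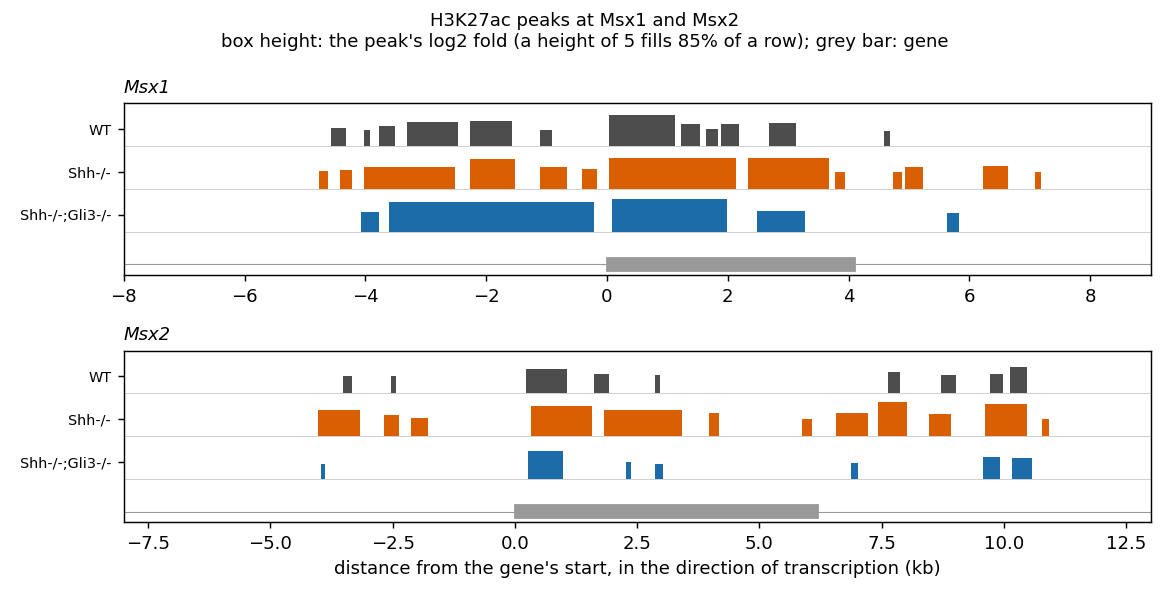
Peaks of each list (boxes, height by log2 fold over the list's own input) by distance from the start of Msx1 and Msx2 in the direction of transcription (horizontal axis, kb); 4 Msx1 peaks of the mutant lists lie outside the axis. At Msx2 the Shh-/- row holds 12 peaks and the Shh-/-;Gli3-/- row 7, with peaks near 7.7 kb in WT and Shh-/- only.

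Msx1 (chr5:37820485-37824583, minus strand), its close relative, had 4.80 kb (WT), 7.95 kb (Shh-/-) and 7.25 kb (Shh-/-;Gli3-/-). The log2 ratios over WT of 0.67 and 0.55 were below the 2-fold limit, and between the mutants the ratio was -0.12, against -1.70 at Msx2. Promoter coverage was 1601, 2151 and 2701 bp of 3001, and the widest promoter peak was 1100 bp in WT, 2100 bp in Shh-/- and 3400 bp in Shh-/-;Gli3-/-, where it joined peaks that the WT list gives apart. The number of peaks was thus lower in Shh-/-;Gli3-/- (8) than in WT (12) and Shh-/- (14), while the covered length was greater than in WT. Of 9 distal WT peaks, 8 were overlapped in Shh-/- and 7 in Shh-/-;Gli3-/-. A group of 4 Shh-/- peaks 4.8 to 7.1 kb from the start, 3 prime of the gene, overlapped no peak of the other lists, the widest being 400 bp.

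Id1 (chr2:152736251-152737410, plus strand) and Id3 (chr4:136143497-136145755, plus strand), inhibitors of basic helix-loop-helix factors, were the most covered of the 10 genes per length of window in each list. Id1 had 7.20 kb (WT), 8.80 kb (Shh-/-) and 9.70 kb (Shh-/-;Gli3-/-), and Id3 had 6.00, 8.35 and 10 kb. These lengths were above those of 97.2% or more of protein-coding genes in each list. The log2 ratios over WT were 0.27 and 0.41 at Id1 and 0.45 and 0.69 at Id3, and neither gene was called in any comparison. The Id1 window also holds H13, Mcts2, Cox4i2 and Bcl2l1, and 8 of its 21 WT peaks lay in exons of H13 or Gm26841 27.8 kb or more upstream, and which gene they act on was not tested. The Id3 window also holds the promoter of E2f2, whose peaks made up 0.7 kb (WT), 0.9 kb (Shh-/-) and 1.3 kb (Shh-/-;Gli3-/-) of the Id3 lengths.

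Promoter coverage at Id3 was 1101 bp in WT, 2201 bp in Shh-/- and 2801 bp in Shh-/-;Gli3-/-, and at Id1 2002, 2501 and 2402 bp. A single Id3 peak of the Shh-/-;Gli3-/- list (3100 bp) spanned what the WT and Shh-/- lists split into several. Upstream of Id3 a distal region 8.3 kb from the start was marked over 1350 bp in WT, 1800 bp in Shh-/- and 1800 bp in Shh-/-;Gli3-/-, and another 4.9 kb downstream over 650, 850 and 950 bp. At Id1, 3 distal WT peaks were overlapped in Shh-/-;Gli3-/- and not in Shh-/-. They were a 400 bp peak in H13 and peaks of 500 and 150 bp at 3.4 and 3.9 kb from the Id1 start, where the Shh-/-;Gli3-/- list holds 1 peak of 750 bp, the one printed above. These were 3 of 16 distal WT peaks at Id1, a share near the 18.6% of all distal WT peaks that were overlapped in Shh-/-;Gli3-/- only, and 1 Id1 peak was overlapped in Shh-/- only. At Id1 the 2 remaining unmatched peaks, of 100 bp each, overlapped neither mutant list.

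Over the 10 genes, 39 of 49 distal WT peaks were overlapped by a Shh-/- peak (79.6%, Wilson 95% interval 66.4 to 88.5) and 35 by a Shh-/-;Gli3-/- peak (71.4%, 57.6 to 82.2). Intervals cover counting error over peaks only. They treat the peaks as independent, although many lie close together in the same stretch, so they are likely too narrow. Among all 11669 distal WT peaks the shares were 39.0% and 52.4%. Width moved with these shares. Of distal WT peaks 300 bp or wider, 91.3% of 23 at the BMP genes were overlapped in Shh-/- and 91.3% in Shh-/-;Gli3-/-, beside 79.2% and 90.2% of all 2816. Of those under 300 bp, 69.2% of 26 were overlapped in Shh-/- and 53.8% in Shh-/-;Gli3-/-, beside 26.2% and 40.3% of all 8853. The split at 300 bp was chosen after the data were seen.

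The 10 distal WT peaks with no Shh-/- overlap belonged to Bmp2 (1), Bmp7 (1), Msx1 (1), Id1 (5) and Id3 (2), and 4 of them, at Bmp7 and Id1, were overlapped in Shh-/-;Gli3-/-. Those 4 made up 8.16% of the 49 distal WT peaks at the BMP genes, beside 18.6% of all distal WT peaks. The Bmp7 peak was 150 bp wide with an FDR of 0.257, and the Msx1 peak 100 bp with an FDR of 0.330. At Id3 they were 100 bp 43.1 kb upstream and 200 bp at 2.5 kb. Bmp4, Bmpr1a and Msx2 had no such peak, and Bmpr1b and Nog had no distal WT peak.

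In the other direction, 29 of 69 distal Shh-/- peaks at the BMP genes overlapped a WT peak (42.0%, beside 26.5% of all 16489), and 21 of 62 distal Shh-/-;Gli3-/- peaks did (33.9%, beside 22.7% of all 21087). The remaining 40 and 41 had no WT overlap, and both of these shares were below those of all distal peaks of the same list, a difference that was not tested. Joined across lists, the distal peaks formed 93 regions, of which 16 were in each list, 29 in Shh-/- alone, 29 in Shh-/-;Gli3-/- alone, 8 in both mutants, 4 in WT and Shh-/-, 2 in WT and Shh-/-;Gli3-/-, and 5 in WT alone. Regions held by every list made up 17.2%, beside 9.83% of 33530 distal regions of the genome. Those of Shh-/- alone made up 31.2%, beside 24.6%, and those of Shh-/-;Gli3-/- alone also 31.2%, which is below the 39.0% of all regions. The shares were 8.60% beside 7.39% for both mutants and 5.38% beside 13.8% for WT alone. For WT and Shh-/- they were 4.30% beside 1.35%, with 3 of those 4 regions at Msx2, and for WT and Shh-/-;Gli3-/- 2.15% beside 4.09%. Regions of Shh-/-;Gli3-/- alone were most frequent at Bmpr1b (10), and those of both mutants at Bmp7 (4).

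**Figure D5:**
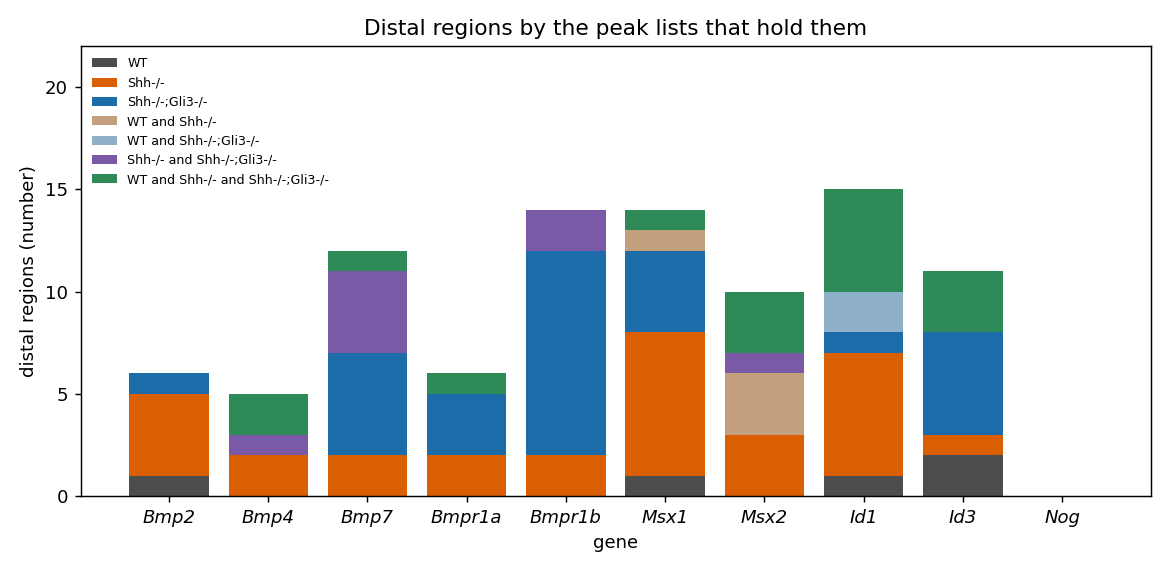
Number of distal regions (vertical axis) at each BMP gene, coloured by the lists that hold a peak there, after overlapping peaks of the 3 lists were joined. Msx2 holds 3 regions of WT and Shh-/- and 0 of Shh-/-;Gli3-/- alone, Bmpr1b holds 10 of Shh-/-;Gli3-/- alone, and Nog has none.

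A list of 27 further genes of the pathway had lower median ratios over WT than the 10 genes, although its highest single ratio, at Smoc1, was above any of theirs. In Shh-/- over WT 26 had a peak in either list, with a median log2 ratio of 0.20. Of these, 2 were called higher (Gdf6 and Tbx2) and 0 lower, beside 4.34% and 0.304% of all genes. For Shh-/-;Gli3-/- over WT 23 had a peak, with a median of 0.16. Here 2 were called higher (Smoc1 and Tbx2) and 0 lower, beside 7.65% and 0.123% of all genes. Between the mutants the median was 0.09, with 1 of 26 higher (Smoc1) and 1 lower (Gdf6), beside 4.10% and 0.898% of all genes. Whether such small counts differ from these shares was not tested. Tbx2, a T-box target of BMP signals in the interdigit, had 0.90 kb (WT), 2.60 kb (Shh-/-) and 2.50 kb (Shh-/-;Gli3-/-). Smoc1, a secreted matrix protein that antagonises BMP signals, had 0.15 kb (WT), 0 kb (Shh-/-) and 3.80 kb (Shh-/-;Gli3-/-), under 9 peaks of up to 1000 bp. Its log2 ratio over WT was 2.73, higher than in 99.9% of genes. Gdf6, a ligand of the same family, was covered over 0.75 kb in Shh-/- and 0 kb in the other lists.

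By role, the type II receptor Bmpr2 (3.60, 3.65 and 3.90 kb) and the receptors Acvr1, Acvr2a and Acvr2b had log2 ratios over WT between -0.10 and 0.23. The transducers Smad1, Smad4, Smad5 and Smad9 ranged from -0.42 (Smad9 in Shh-/-) to 0.49 (Smad1 in Shh-/-;Gli3-/-). The intracellular inhibitors Smad6 (7.20, 9.60 and 7.90 kb) and Smad7 (6.80, 8.90 and 9.10 kb), which are themselves induced by BMP signals, were covered at lengths like those of Id1 and were not called. The antagonist Grem1, which SHH induces in posterior mesenchyme, had 0.10, 0.20 and 0.55 kb, and Fst had no peak. In ChIP-seq of pooled limb buds, the study reports that GRE1, a GLI-bound enhancer of Grem1, loses H3K27ac in Shh-/-. That enhancer was not examined here, so the Grem1 lengths do not bear on it. Id2 (6.40, 5.90 and 7.05 kb) and Id4 (1.20, 1.20 and 1.40 kb) were not called either.

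The labelled tissue was checked on promoters of marker genes. The limb mesenchyme markers Prrx1, Tbx5 and Hoxd9 were covered over 2328 to 3001 bp of a promoter window in each list. The hindlimb genes Pitx1 and Tbx4, the ectoderm genes Fgf8, Krt5 and Epcam, and the muscle genes Pax3, Myod1 and Myf5 were at 0 bp in each list. Of the blood and endothelial markers, Tal1 was covered over 150 bp in Shh-/- and Pecam1 over 350 bp in Shh-/-;Gli3-/-, and Gata1, Hbb-y, Kdr and Cdh5 were at 0 bp.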

How the data were processed

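Sources. H3K27ac MicroChIP-seq of single limb pairs, dissociated with 100 ug/mL Liberase for 6 minutes, used 12 cycles of library PCR. Titles gave the groups, since the labels' genotype tag gives wild type for all samples. The submitters' processing notes name Bowtie2 2.2.5 and mm10, and the study names CisGenome for peak calling. One list per genotype, attached to the first replicate, was analysed. The study describes its MicroChIP peaks as called from both replicates at an FDR below 0.05, a limit that the deposited lists exceed, and how the replicates were joined is not given in the sources used here. The study states a minimum sequencing depth for all its libraries, and depth per library cannot be read from the lists.

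Units. The authors deposited for each peak its width in steps of 50 bp, a score (the largest value of the caller's statistic, at least 3.0), the largest log2 fold over input, a −log10 Poisson p-value, and an FDR (q-value) of up to 0.350, 0.186 and 0.109 in the WT, Shh-/- and Shh-/-;Gli3-/- lists. The deposited −log10 values were not used, and the others served to rank, filter or describe peaks.

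Computation. Positions are as listed. Peaks on assembled chromosomes lay within the lengths of GRCm38, and 4, 8 and 6 peaks lay on other sequences. Covered length, overlap (1 bp or more) and Wilson intervals were computed with numpy 2.4.6, scipy 1.17.1 and pandas 2.3.3 (Python 3.11.15), and coverage was tested on simulated data. Distal peaks overlap no promoter window of a protein-coding transcript. Background genes are those with a peak of either list in the window, and neighbouring windows overlap. The 10 genes, the pathway and marker lists, the motifs and the alternatives were chosen with earlier results of these data known. All 10 genes are named; single peaks are named by the rule that a distal WT peak lacks a Shh-/- peak, or were chosen after their values were seen.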

Additional observations from a re-analysis of the deposited data

How the results depend on the processing

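The lists were recomputed under 11 alternatives for lengths and counts and 11 for overlaps, of which the 250 kb windows were chosen after the data were seen. The number of genes covered 2-fold more in Shh-/- than in WT (4) was 2 with windows of 100 or 250 kb, with a log2 fold of at least 3 and with lists of equal covered length. For Shh-/-;Gli3-/- over WT, 0 were higher with equal covered length (2 as reported), and 1 was lower (0 as reported) with equal covered length, peaks merged within 1 kb or 100 bp added. Between the mutants (Shh-/-;Gli3-/- over Shh-/-), 1 was lower (2 as reported) at an FDR below 0.01, a log2 fold of at least 3 and in 250 kb windows, and 1 was higher (0 as reported) in 100 kb windows, at an FDR below 0.05, with merged peaks and with 100 bp added. Of Msx1, Msx2, Id1 and Id3, 2 were called at a log2 fold of at least 3 and 0 in 250 kb windows (1 as reported). The shares of all genes called were not computed for the alternatives, so these counts stand without a background.

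The median log2 ratio of the 10 genes in Shh-/- over WT (0.82) was 0.77, 0.68 and 0.72 with windows of 10, 100 and 250 kb, 0.99 and 0.67 at FDR below 0.05 and 0.01, 0.66 at a log2 fold of at least 3, 0.76 with equal numbers of peaks, 0.35 with equal covered length, 0.65 with merged peaks, 1.09 with 100 bp added and 0.61 relative to the median of all genes. For Shh-/-;Gli3-/- over WT (0.60) the same settings gave 0.53, 0.54, 0.67, 0.76, 0.75, 0.55, 0.52, 0.058, 0.47, 0.66 and 0.30. Both kept their sign.

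For Bmp2 minus the mean of Bmp4 and Bmp7, Shh-/- over WT (0.21) was 0.0091, 0.17 and 1.22 with windows of 10, 100 and 250 kb, 0.29 and 0.28 at FDR below 0.05 and 0.01, 0.046 at a log2 fold of at least 3, 0.24 with equal numbers, 0.39 with equal covered length, 0.83 with merged peaks and 1.16 with 100 bp added. The same difference in Shh-/-;Gli3-/- over WT (-0.43) was -0.52 and 0.29 with windows of 100 and 250 kb, -0.30 and -0.26 at FDR below 0.05 and 0.01, -0.26 with equal numbers, -0.19 with equal covered length, -0.24 with merged peaks and 0.23 with 100 bp added, and no value was possible at a log2 fold of at least 3 because Bmp2 held no such peak in either list.

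The share of distal WT peaks overlapped in Shh-/- (79.6%) was 95.9% with a gap of up to 500 bp and 61.5% in 250 kb windows. The share in Shh-/-;Gli3-/- (71.4%) was 88.5% and 89.5% at FDR below 0.05 and 0.01, 49.0% with equal covered length and 89.8% with the gap. The remaining alternatives kept the count within 1.5 times or the share within its interval. The cause of these shifts was not tested, apart from the smaller lists that each filter makes by construction.

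No paired analysis was possible because the lists carry no value per replicate, and for the same reason no replicate was left out. The lists show neither the depth of each library nor the variation between embryos, and the ratios of Bmp2 and Nog rest on narrow peaks.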

Other observations

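Bmp2 and Nog, the least covered genes of the group, were also examined over 250 kb on each side, a width chosen after the data were seen. Within 250 kb of Bmp2 no other protein-coding gene is annotated. Its window held 3 WT peaks (0.30 kb, none wider than 100 bp), 10 Shh-/- peaks (2.65 kb, up to 1000 bp) and 8 Shh-/-;Gli3-/- peaks (1.75 kb, up to 450 bp), so both mutant lists marked more of this interval than the WT list. Around Nog the lists held 5, 5 and 2 peaks over 0.90, 1.40 and 0.45 kb, and this interval also holds Dgke, Gm525 and Ankfn1.

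Over the wider windows Bmpr1b was covered over 0.90 kb (WT), 4.10 kb (Shh-/-) and 8.55 kb (Shh-/-;Gli3-/-), and Bmp7 over 4.65, 9.10 and 14.35 kb. Msx2 had 6.00, 11.10 and 7.75 kb, so its Shh-/- value remained the highest of the 3, while the Shh-/-;Gli3-/- value was above that of WT and not below it as in the 50 kb windows.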
